A study of Rattus norvegicus with 44 samples.

Results

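The 9 genes described here encode enzymes that oxidise alcohols and aldehydes. They are the alcohol dehydrogenases *Adh1c*, *Adh4* and *Adh7*, the aldehyde dehydrogenases *Aldh1a1*, *Aldh2*, *Aldh3a2* and *Aldh9a1*, the cytochrome P450 *Cyp2e1* and the catalase gene *Cat*. They were chosen by name, and each is read from every probe set (the group of short probes that reports 1 transcript) to which the platform annotation assigns that gene alone. This gave 10 probe sets, 2 of them for *Adh1c*, among 31042 tested probe sets and 14217 named genes.

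The agent was crude MCHM, an industrial liquid whose main component, 4-methylcyclohexanemethanol, is a primary alcohol. Male Harlan Sprague Dawley rats, 6 to 8 weeks old at assignment and fed NTP-2000, were gavaged for 5 days with 0.1, 1, 10, 100, 300 or 500 mg/kg in 5 mL/kg corn oil. The controls (0 mg/kg) received corn oil alone, and all rats were killed on the day after the last dose. Liver gave 27 arrays, 4 at each dose and 3 at 0.1 mg/kg, and kidney gave 17, 3 each at 0, 300 and 500 mg/kg and 2 at each other dose. The labels call the arrays of a group biological replicates, and they do not tie a liver array to a kidney array of the same rat.

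Primary alcohols are oxidised in 2 steps. An alcohol dehydrogenase in the cytosol first makes the aldehyde, and an aldehyde dehydrogenase in the cytosol, mitochondrion or endoplasmic reticulum then makes the acid. The cytochrome P450 product of *Cyp2e1* and the peroxisomal enzyme catalase are side routes for ethanol, and hepatocytes are known for carrying all of these activities.

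Both organs carried the transcripts that define them. The mean log2 level of 6 hepatocyte markers was 12.83 to 13.40 on the liver arrays, and that of the proximal tubule markers was 12.25 to 12.64 on the kidney arrays. On 16 kidney arrays the hepatocyte mean was 3.67 to 4.18, but replicate 1 at 1 mg/kg read 7.02, with *Alb*, the serum albumin gene, at 11.06. On that array *Adh1c* and *Cyp2e1* read 11.20 and 10.60, against 10.90 and 10.31 on the other kidney of that dose. The liver-rich *Adh4* and *Adh7* read 3.51 and 3.32. All these values lay within the range of the other kidney arrays. In vehicle livers *Adh4* and *Adh7* averaged 6.15 and 6.32. The part of liver RNA in the values of that array was not tested. *Xist*, a transcript of the inactive X chromosome in females, went against the male label on vehicle replicate 2 in both organs, at 11.00 in liver and 9.33 in kidney, against 3.04 or less on all other arrays. Leaving out kidney vehicle replicate 1 took the count of all probe sets past the threshold at 500 mg/kg from 0 to 616, with 0 of the 9 genes among them. Without liver vehicle replicate 2 0 probe sets passed at 300 mg/kg in that organ against 38 with it, and leaving out any other single array of those groups gave at most 22. All these arrays were kept.

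No dose changed any of the 9 transcripts past the threshold in either organ. The test was limma on log2 values with Benjamini-Hochberg adjustment over all probe sets and a threshold of 0.05, and a change is always dosed minus vehicle in log2 units. In liver, 0.122% of all probe sets passed at 300 mg/kg, 0.177% at 500 mg/kg, 0.245% in the trend over dose levels and 0.148% in the test of any dose, and 0% passed at each lower dose. In kidney, 0% passed at every dose, in the trend and in the test of any dose, so a count of 0 among 9 genes is near the background throughout. At an unadjusted limma p under 0.05, 3 of the 9 genes lay at 500 mg/kg in liver, where 8.99% of all probe sets did, and 2 of 9 in kidney, where 10.1% did. The highest changes at 500 mg/kg in liver were those of *Adh7*, *Adh1c* and *Cyp2e1*, and in kidney that of *Cyp2e1*.

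The alcohol dehydrogenase genes lie side by side. In the rat assembly GRCr8 *Adh7* spans chr2:229422125-229436584, *Adh1c* spans chr2:229470703-229482291 and *Adh4* spans chr2:229622092-229640120, and RefSeq places all 3 on the forward strand. Between *Adh7* and *Adh1c* lie 34.1 kb with 0 annotated genes, and between *Adh1c* and *Adh4* lie 139.8 kb with 5, of which 2 are coding, *Adh6a* and *Adh6*. The 250 bases before each start are shown because the pairwise correlations of these neighbours over the livers were unequal in size. They are from RefSeq on GRCr8, read 5′ to 3′ on the forward strand at chr2:229421875-229422124, chr2:229470453-229470702 and chr2:229621842-229622091 in the order printed. Capitals mark matches on either strand to the TATA box letters TATAAA, to the CCAAT box letters CCAAT, to the E-box letters CANNTG or to the nuclear receptor half-site AGGTCA, and matches can overlap.
Adh7: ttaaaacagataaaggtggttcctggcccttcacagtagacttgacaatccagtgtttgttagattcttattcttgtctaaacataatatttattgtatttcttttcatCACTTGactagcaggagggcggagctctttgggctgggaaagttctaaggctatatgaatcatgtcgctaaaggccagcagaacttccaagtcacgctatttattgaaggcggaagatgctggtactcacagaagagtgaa
Adh1c: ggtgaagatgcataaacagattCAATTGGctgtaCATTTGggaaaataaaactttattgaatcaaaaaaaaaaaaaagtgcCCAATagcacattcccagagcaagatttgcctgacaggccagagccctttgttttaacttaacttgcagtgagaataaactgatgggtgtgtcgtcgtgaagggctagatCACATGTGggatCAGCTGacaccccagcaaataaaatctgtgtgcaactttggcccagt
Adh4: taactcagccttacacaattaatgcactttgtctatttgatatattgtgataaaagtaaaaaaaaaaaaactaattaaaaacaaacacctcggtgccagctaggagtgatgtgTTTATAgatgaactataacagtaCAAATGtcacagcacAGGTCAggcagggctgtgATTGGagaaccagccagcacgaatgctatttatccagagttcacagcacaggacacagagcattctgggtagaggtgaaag

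The *Adh7* window holds 1 E-box match and none of the other letters. The *Adh1c* window holds 2 CCAAT matches and 5 E-box matches. The *Adh4* window is the only one of these 3 with a match to the TATA box letters or the half-site. It also has a CCAAT match and 1 E-box match. Its TATA box letters lie on the reverse strand, 137 to 132 bases before the start. Whether they work as a TATA box was not tested. Of 33469 promoters of this length, 12.9% hold the TATA box letters, 34.0% a CCAAT box, 65.5% an E-box and 14.1% a half-site. Among the 8 of the 9 genes with an entry, the TATA box letters were found in 2 (*Adh4* and *Cyp2e1*), a CCAAT box in 7 (all but *Adh7*), an E-box in 6 and a half-site in 3 (*Adh4*, *Cat* and *Cyp2e1*). The 3 alcohol dehydrogenase windows are 39.2% to 41.2% G and C, against a median of 51.2% over all promoters, while those of *Aldh3a2*, *Cat* and *Aldh9a1* are 58.8% to 68.4%.

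*Adh1c* encodes the class I alcohol dehydrogenase, the main ethanol-oxidising enzyme of the liver. Its log2 levels in vehicle livers were 13.24, 12.99, 12.93 and 13.01. They were 12.97, 13.44, 13.14 and 13.29 at 300 mg/kg and then 13.55, 13.15, 13.59 and 13.59 at 500 mg/kg. The groups overlapped at both doses: at 500 mg/kg 3 of 4 livers lay above every vehicle liver, and replicate 2 lay below the highest one. The lowest dose mean was 12.87 at 100 mg/kg, with single values of 12.61, 12.88, 12.89 and 13.09, and the highest 13.47 at 500 mg/kg, so the order of the means did not follow dose. The change at 500 mg/kg was 0.43 (SE 0.132, 95% interval 0.16 to 0.70, 1.35-fold), with an unadjusted limma p of 0.00323 and an adjusted p of 0.261. The slope was 0.046 per dose level (adjusted p = 0.401).

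The second *Adh1c* probe set gave a wider range. Its levels were 8.73, 8.42, 8.06 and 8.29 in vehicle livers and 9.55, 8.56, 9.76 and 9.63 at 500 mg/kg. Replicate 2 was again the low liver, and again 3 of 4 lay above all vehicle livers. The change was 1.00 (SE 0.259, 95% interval 0.47 to 1.53, 2.00-fold; adjusted p = 0.148). Over the 27 livers the 2 probe sets correlated with r = 0.974 (rho = 0.951) and so gave similar orders of livers.

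*Adh7* encodes the class IV enzyme, known for its activity toward retinol and its abundance in the upper digestive tract. Its levels in vehicle livers were 6.43, 6.35, 6.06 and 6.42. They were 5.23, 5.68, 6.12 and 6.35 at 100 mg/kg, 6.33, 7.03, 6.76 and 7.16 at 300 mg/kg and then 7.20, 6.83, 6.98 and 6.70 at 500 mg/kg. All 4 livers at 500 mg/kg lay above all vehicle livers, whereas at 300 mg/kg 1 of 4 lay among them and at 100 mg/kg the lowest of the 7 dose means was reached. At 500 mg/kg 2 of the 9 genes, *Adh7* and *Cyp2e1*, lay above vehicle without overlap, as did 3.4% of all probe sets. The *Adh7* change was 0.61 at 500 mg/kg (SE 0.270, 95% interval 0.06 to 1.17, 1.53-fold; adjusted p = 0.490), 0.50 at 300 mg/kg (adjusted p = 0.563) and -0.47 at 100 mg/kg (adjusted p = 0.859). The highest single level, 7.38, came from replicate 1 at 1 mg/kg, where the second *Adh1c* probe set also had its highest value for that dose.

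*Adh4* encodes the class II enzyme, which oxidises longer-chain and retinoid alcohols in liver. Its levels were 6.50, 6.19, 6.52 and 5.39 in vehicle livers, 6.15, 7.15, 6.11 and 6.09 at 300 mg/kg and then 6.24, 6.33, 6.03 and 5.71 at 500 mg/kg. The groups overlapped at every dose, and a single liver set each extreme: vehicle replicate 4 the lowest value and replicate 2 at 300 mg/kg the highest. The change at 500 mg/kg was -0.08 (SE 0.271, 95% interval -0.63 to 0.48; adjusted p = 0.970), an interval that holds the *Adh1c* estimate. Its sign rested on single arrays: it was -0.33 without vehicle replicate 4, 0.04 without vehicle replicate 1 and 0.05 without vehicle replicate 3.

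**Figure D1:**
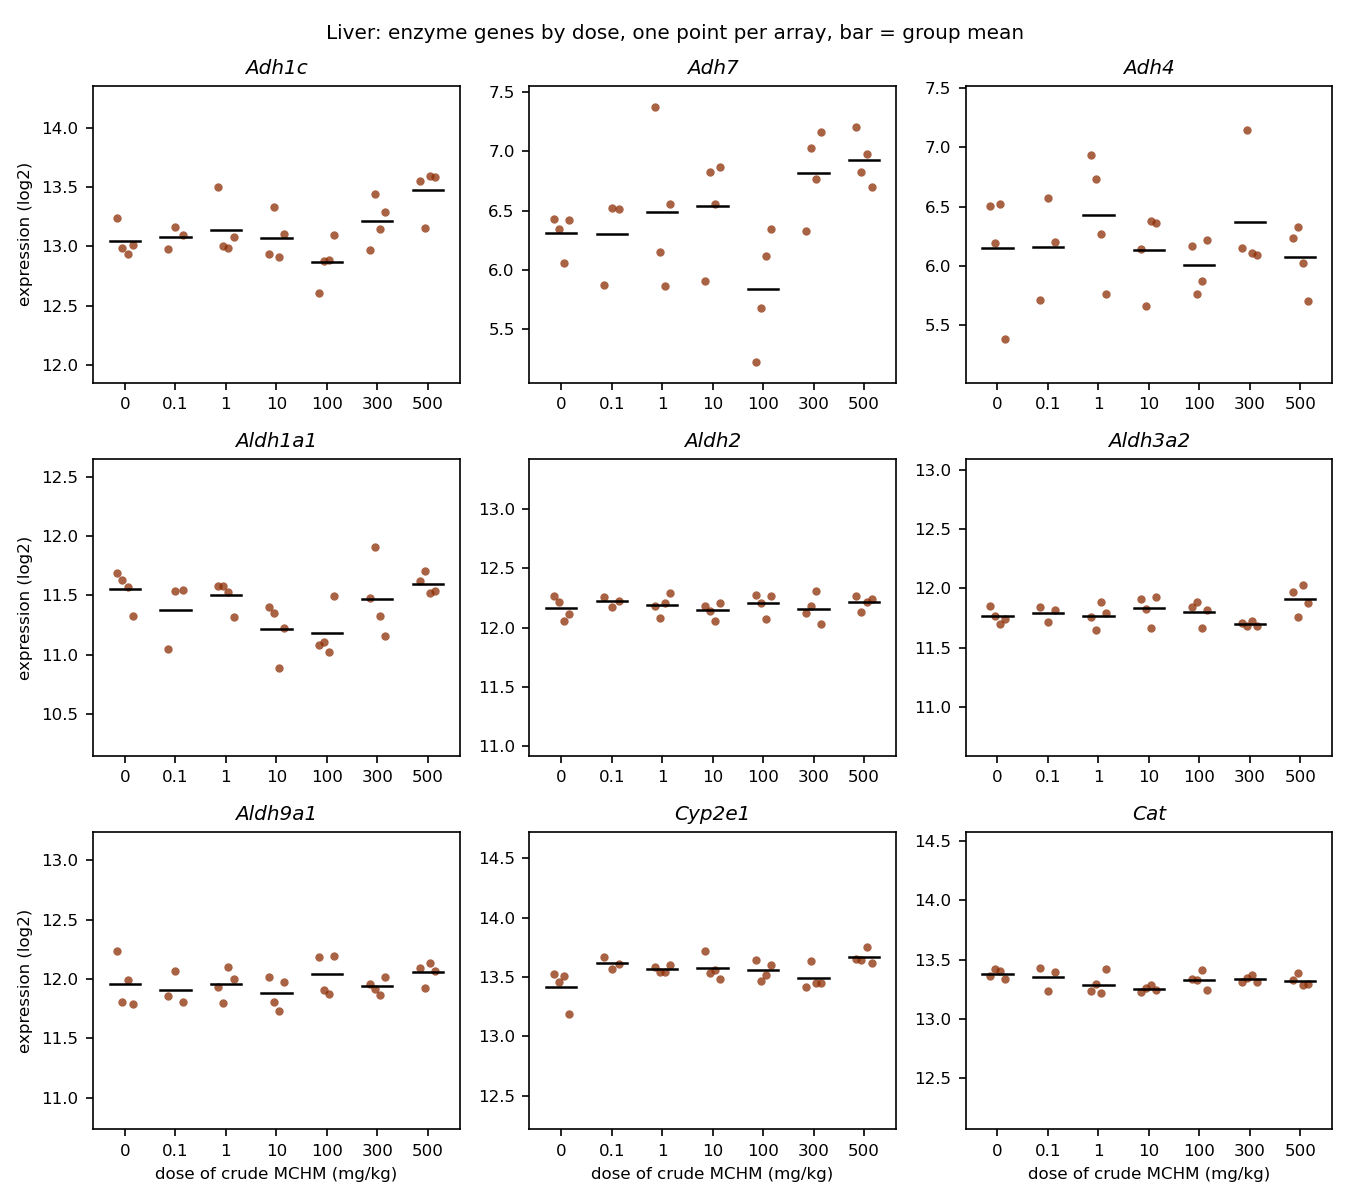
Log2 expression of the 9 genes in liver (vertical axes, each spanning 2.5 log2 units) by dose of crude MCHM in mg/kg (horizontal axes), with 1 point per array and a bar at each group mean. *Adh1c* and *Adh7* have their lowest mean at 100 mg/kg and their highest at 500 mg/kg, while *Aldh2*, *Aldh3a2* and *Cat* stay within narrow ranges.

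Of the 4 aldehyde dehydrogenase genes in liver, *Aldh2* and *Aldh9a1* had dose means within narrow ranges. *Aldh2*, the mitochondrial enzyme that clears acetaldehyde, ran only from 12.03 to 12.31 over the 27 livers, and its change at 500 mg/kg was 0.05 (SE 0.0738, 95% interval -0.10 to 0.20; adjusted p = 0.899). *Aldh9a1*, which acts on aminoaldehydes in carnitine synthesis, ran from 11.73 to 12.24, with a change of 0.10 at 500 mg/kg (95% interval -0.11 to 0.31; adjusted p = 0.843) that was 0.04 without vehicle replicate 4, 0.05 without vehicle replicate 2, the array with high *Xist*, and 0.19 without vehicle replicate 1.

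*Aldh3a2* encodes the fatty aldehyde dehydrogenase of the endoplasmic reticulum. Its levels were 11.85, 11.77, 11.70 and 11.74 in vehicle livers, 11.71, 11.68, 11.73 and 11.68 at 300 mg/kg and then 11.97, 11.76, 12.03 and 11.87 at 500 mg/kg. Its lowest dose mean, at 300 mg/kg, and its highest, at 500 mg/kg, thus lay side by side. At 500 mg/kg 3 of 4 livers lay above all vehicle livers, and the change was 0.14 (SE 0.0768, 95% interval -0.02 to 0.30; adjusted p = 0.624).

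*Aldh1a1* encodes a cytosolic enzyme that makes retinoic acid from retinal. It was lowest in the middle of the dose range: the levels were 11.69, 11.63, 11.57 and 11.33 in vehicle livers, 11.40, 11.35, 10.89 and 11.22 at 10 mg/kg and then 11.08, 11.11, 11.02 and 11.50 at 100 mg/kg. At 500 mg/kg they were back at 11.62, 11.70, 11.52 and 11.54. Both middle groups overlapped the vehicle group. The change was -0.34 at 10 mg/kg (SE 0.144; adjusted p = 0.871), -0.38 at 100 mg/kg (adjusted p = 0.712) and 0.04 at 500 mg/kg (adjusted p = 0.970; -0.04 to 0.09 with 1 array left out). In the limma test of any dose its unadjusted p was 0.0439 and its adjusted p 0.532. In that test 3 of the 9 genes had an unadjusted p under 0.05, where 9.06% of all probe sets did.

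*Cyp2e1*, the ethanol-inducible P450, had its lowest dose mean in the vehicle livers, at 13.42, and the next lowest, 13.49, at 300 mg/kg. This order rested on vehicle replicate 4. *Cyp2e1* levels in vehicle livers were 13.53, 13.45, 13.51 and 13.18. They were 13.67, 13.57 and 13.61 at 0.1 mg/kg, 13.42, 13.63, 13.45 and 13.45 at 300 mg/kg and then 13.65, 13.64, 13.75 and 13.62 at 500 mg/kg. The livers at 0.1, 1 and 500 mg/kg lay above all vehicle livers, as did 3.71%, 1.26% and 3.4% of all probe sets, and those at 10, 100 and 300 mg/kg overlapped them. The change at 500 mg/kg was 0.25 (SE 0.0779, 95% interval 0.09 to 0.41, 1.19-fold; adjusted p = 0.275). It was 0.17 without vehicle replicate 4, the lowest of the 27 livers.

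*Cat* varied least of the 9. It stayed between 13.22 and 13.43 on all livers, and its change at 500 mg/kg was -0.06 (SE 0.0644, 95% interval -0.19 to 0.08; adjusted p = 0.862). At 10 mg/kg its 4 livers, at 13.23, 13.26, 13.29 and 13.25, lay below all vehicle livers, as did 1.36% of all probe sets, with a change of -0.12 (adjusted p = 0.903).

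At 500 mg/kg in liver 7 of the 9 genes lay above vehicle and 2 below, with a median change of 0.10 against 0.0044 over all probe sets. At 300 mg/kg 4 lay above and 5 below, with a median of -0.0040, and the median over all probe sets was -0.0034.

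Differences between livers of the same dose set what could be seen. The within-group SD was 0.421 for *Adh4* and 0.420 for *Adh7*, each larger than in 98.9% of all probe sets, and 0.403 for the second *Adh1c* probe set. At the other end *Cat* had 0.062, *Aldh2* 0.085, *Aldh3a2* 0.091 and *Cyp2e1* 0.093, which 1.1%, 4.1%, 5.6% and 6.1% of all probe sets were below. *Adh1c* (0.192), *Aldh1a1* (0.213) and *Aldh9a1* (0.142) lay nearer to the median of 0.177. The 95% interval of the change at 500 mg/kg was accordingly -0.19 to 0.08 for *Cat* and 0.06 to 1.17 for *Adh7*.

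*Adh1c* and *Adh7* rose and fell together from liver to liver. Over the 27 livers their levels correlated with r = 0.841 (permutation p = 1e-05, the smallest that 100000 permutations can give, adjusted p = 2.25e-04 over 45 pairs of probe sets) and rho = 0.846. Without the 2 livers farthest from the *Adh1c* median r was 0.887, and without vehicle replicate 2, the array with high *Xist*, it was 0.842. The relation also held within doses: on deviations from the dose-group means r was 0.771 (adjusted permutation p = 0.00157, permuting within groups). *Adh4*, on the same chromosome segment, gave r = 0.171 with *Adh1c* (permutation p = 0.395, adjusted p = 0.573) and r = 0.259 with *Adh7* (adjusted permutation p = 0.391). Without the 2 livers farthest from the *Adh1c* median, r of *Adh4* with *Adh1c* was 0.369. Without the 2 farthest from the *Adh4* median, r of *Adh4* with *Adh7* was 0.192. A difference between these correlations was not tested.

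Probe sequences were not used here, so shared hybridisation between the *Adh1c* and *Adh7* probe sets was not tested. In kidney, *Adh7* read 3.78 or less on every array while *Adh1c* read 10.69 or more. Over the 17 kidneys the pair gave r = 0.347 (permutation p = 0.176, adjusted p = 0.465), and 0.072 without the 2 kidneys farthest from the *Adh1c* median. On deviations from the dose-group means r was 0.715 (permutation p = 0.200, adjusted p = 0.717).

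**Figure D2:**
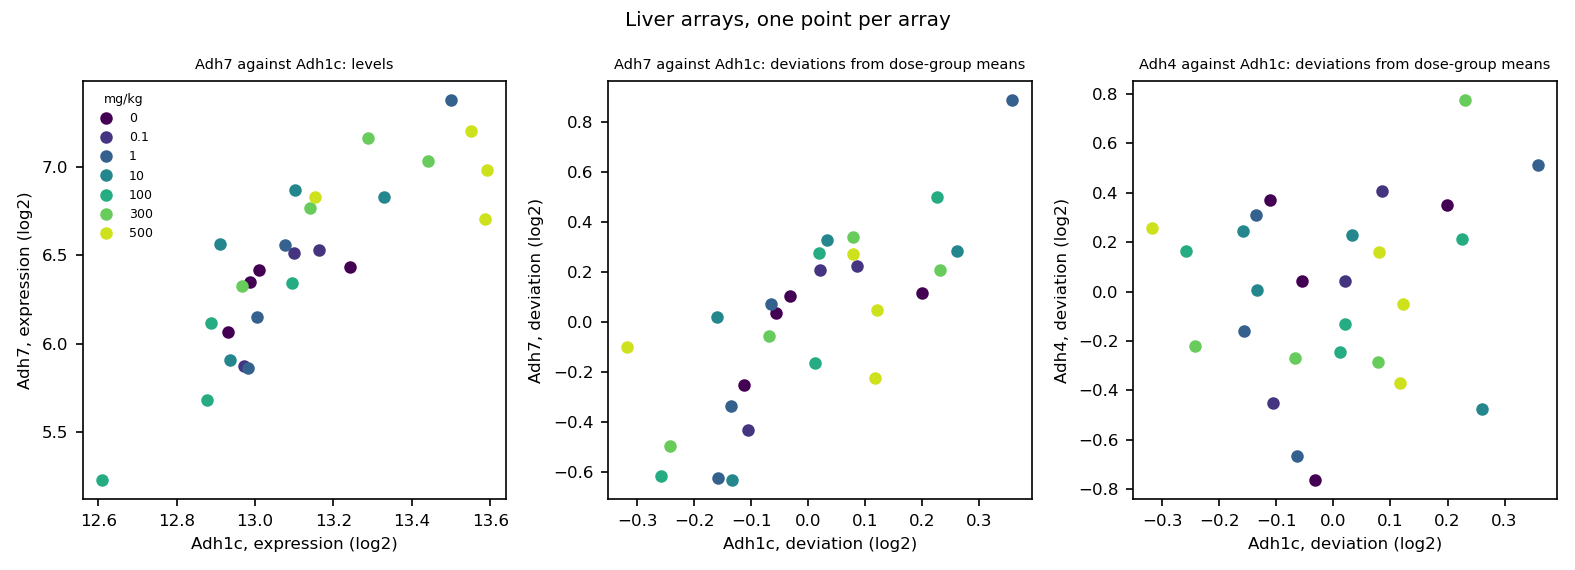
Each point is 1 liver array, coloured by dose in mg/kg: *Adh7* against *Adh1c* as log2 levels (left, r = 0.841) and as deviations from dose-group means (middle, r = 0.771), and *Adh4* against *Adh1c* as deviations (right). The *Adh7* points climb with *Adh1c* in both plots, and the *Adh4* points scatter.

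In all, 7 of the 45 liver pairs passed the threshold, all with positive r, and 5 did so on deviations from group means. *Aldh2* and *Aldh3a2* gave r = 0.609 (rho = 0.629, adjusted permutation p = 0.00754), 0.556 without the 2 farthest livers and 0.693 on deviations (adjusted p = 0.0018). *Adh4* and *Aldh1a1* gave r = 0.527 (adjusted permutation p = 0.0349), 0.435 without the 2 farthest livers and 0.611 on deviations (adjusted p = 0.0391). *Adh1c* with *Aldh1a1* (r = 0.527) and *Aldh3a2* with *Aldh9a1* (r = 0.504) passed on levels but not on deviations, where adjusted permutation p was 0.283 and 0.0622. The other 3 pairs that passed join the *Adh1c* probe sets with each other and with *Adh7*. In kidney 1 of 45 pairs passed, that of the 2 *Adh1c* probe sets (r = 0.867).

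Among 9616 named genes above the median level in liver, *Adh7* was the gene whose pattern over the 27 arrays was most like *Adh1c* (r = 0.841), and *Adh1c* the one most like *Adh7*. Next were *Hebp1* for *Adh1c* (r = 0.777) and *Prlr*, the prolactin receptor gene, for *Adh7* (r = 0.726). For *Adh4* they were *Alkbh7* (0.700) and *Slf2* (0.656), and for *Aldh1a1* *Lyplal1* (0.719) and *Amigo2* (0.709). *Aldh2* was most like *Stmp1* (0.832) and *Ivd* (0.821), *Aldh3a2* like *Grcc10* (0.820) and *Acad11* (0.800), and *Aldh9a1* like *Dnmbp* (0.737) and *Fkbp8* (0.725). *Cyp2e1* was most like *Sat2* (0.738) and *Hsd17b4* (0.734), and *Cat* like *Efr3a* (0.721) and *Rup2* (0.714). These are descriptions over arrays that share dose groups and 1 normalisation.

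In kidney, *Cyp2e1* had the widest range of the 9. Its levels were 10.97, 10.80 and 10.19 in vehicle kidneys, 10.95, 11.77 and 11.40 at 300 mg/kg and then 11.48, 11.01 and 11.21 at 500 mg/kg. All 3 kidneys at 500 mg/kg lay above all vehicle kidneys, as did 7% of all probe sets, while 1 of 3 at 300 mg/kg lay just below the highest one. The change was 0.72 at 300 mg/kg (SE 0.243, 95% interval 0.19 to 1.24, 1.64-fold; adjusted p = 0.999) and 0.58 at 500 mg/kg (SE 0.243, 95% interval 0.06 to 1.10, 1.49-fold; adjusted p = 0.449). Vehicle replicate 3 was the lowest of the 17 kidneys, and without it the change at 500 mg/kg was 0.35 (adjusted p = 0.827). The within-group SD of 0.340 was larger than in 93.7% of probe sets. The slope was 0.10 per dose level (adjusted p = 0.650).

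*Aldh1a1*, *Aldh2* and *Aldh3a2* had their lowest means of the 7 kidney groups at 500 mg/kg, as did the second *Adh1c* probe set. *Aldh2* read 11.40, 11.30 and 11.46 in vehicle kidneys and 11.23, 11.09 and 11.23 at 500 mg/kg. *Aldh3a2* read 8.80, 8.82 and 8.96 in vehicle kidneys and 8.60, 8.74 and 8.52 at 500 mg/kg. Together with *Aldh1a1*, at 11.85, 11.62 and 11.65 against 11.60, 11.37 and 11.55, these 3 of 9 genes lay below all vehicle kidneys at 500 mg/kg, as did 8.81% of all probe sets. The changes were -0.24 for *Aldh3a2* (SE 0.0965, 95% interval -0.44 to -0.03; adjusted p = 0.431), -0.21 for *Aldh2* (95% interval -0.46 to 0.05; adjusted p = 0.584) and -0.20 for *Aldh1a1* (95% interval -0.46 to 0.06; adjusted p = 0.608). The slopes per dose level of *Aldh2* (-0.05) and *Aldh3a2* (-0.04) had unadjusted limma p of 0.00699 and 0.00778 and adjusted p of 0.640 and 0.641, and 3 of the 9 slopes had an unadjusted p under 0.05 where 7.1% of all did.

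In the same kidneys the mean of the proximal tubule markers was 12.525 to 12.619 with vehicle and 12.317 to 12.524 at 500 mg/kg. These ranges all but met. The mean of the thick limb and distal tubule markers overlapped, at 11.39 to 11.80 in vehicle kidneys and 11.52 to 11.78 at 500 mg/kg. The endothelial mean was 8.00 to 8.25 in vehicle kidneys and 7.83 to 7.96 at 500 mg/kg, and that of the stomach and gut lining markers 5.36 to 5.38 and 5.21 to 5.28. In that last list *Vil1* had a median of 8.55 over the kidney arrays, and *Tff1*, *Krt20* and *Gkn1* had 5.48, 3.95 and 3.19. Its mean is thus not a measure of gut lining in kidney. The collecting duct mean was 8.19 to 8.33 in vehicle kidneys and 8.32 to 8.67 at 500 mg/kg. Their part in these changes was not tested. In whole organs fewer cells of a type and less RNA per cell cannot be told apart.

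*Adh1c* read 11.30, 11.49 and 11.06 in vehicle kidneys and 11.61, 10.69 and 11.05 at 500 mg/kg, which are the highest and the lowest of the 17 kidneys and 1 between. The change was -0.17 (SE 0.204, 95% interval -0.60 to 0.27; adjusted p = 0.826). It was -0.06 without vehicle replicate 2, the array with high *Xist*, -0.28 without vehicle replicate 3, -0.42 without replicate 1 at 500 mg/kg and 0.05 without replicate 2 at that dose. The lowest kidney, replicate 2 at 500 mg/kg, also had the mean of 6 adipocyte markers at 7.02, against 5.08 to 7.45 on all kidney arrays. The next lowest, replicate 2 at 100 mg/kg with *Adh1c* at 10.72, had it at 5.58. After it came replicate 2 at 1 mg/kg, with *Adh1c* at 10.90 and the highest adipocyte mean, 7.45. The kidneys with *Adh1c* lowest and next lowest also had the lowest proximal tubule means of the 17, at 12.32 and 12.25. The part of either tissue in these values was not tested. *Adh7* ran from 2.95 to 3.78 and *Adh4* from 2.95 to 3.69, toward the low end of the deposited values, which begin at 1.80. *Aldh9a1* ran from 11.40 to 11.84, with a change of 0.03 at 500 mg/kg (adjusted p = 0.959; -0.09 to 0.13 with 1 array left out).

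*Cat* read 13.03, 13.06 and 13.00 in vehicle kidneys and 12.94, 12.99 and 13.10 at 500 mg/kg (change -0.02, 95% interval -0.19 to 0.16; adjusted p = 0.963). Its lowest group was that at 10 mg/kg, with 12.82 and 12.74 (change -0.25, SE 0.0912; adjusted p = 0.993). At that dose *Cat*, *Adh4* and *Aldh3a2* lay below all vehicle kidneys, as did 9.13% of all probe sets, and *Adh7* lay above them, as did 9.55%. With 2 or 3 kidneys a group such gaps were common. At 0.1 mg/kg *Aldh2* and *Cyp2e1* lay above (10.1% of all probe sets), at 1 mg/kg *Adh7* lay above (11.5%) and *Cat* below (11.5%), at 100 mg/kg *Aldh2*, *Aldh3a2* and *Cat* lay below (7.9%), and at 300 mg/kg *Aldh3a2* did (3.68%).

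**Figure D3:**
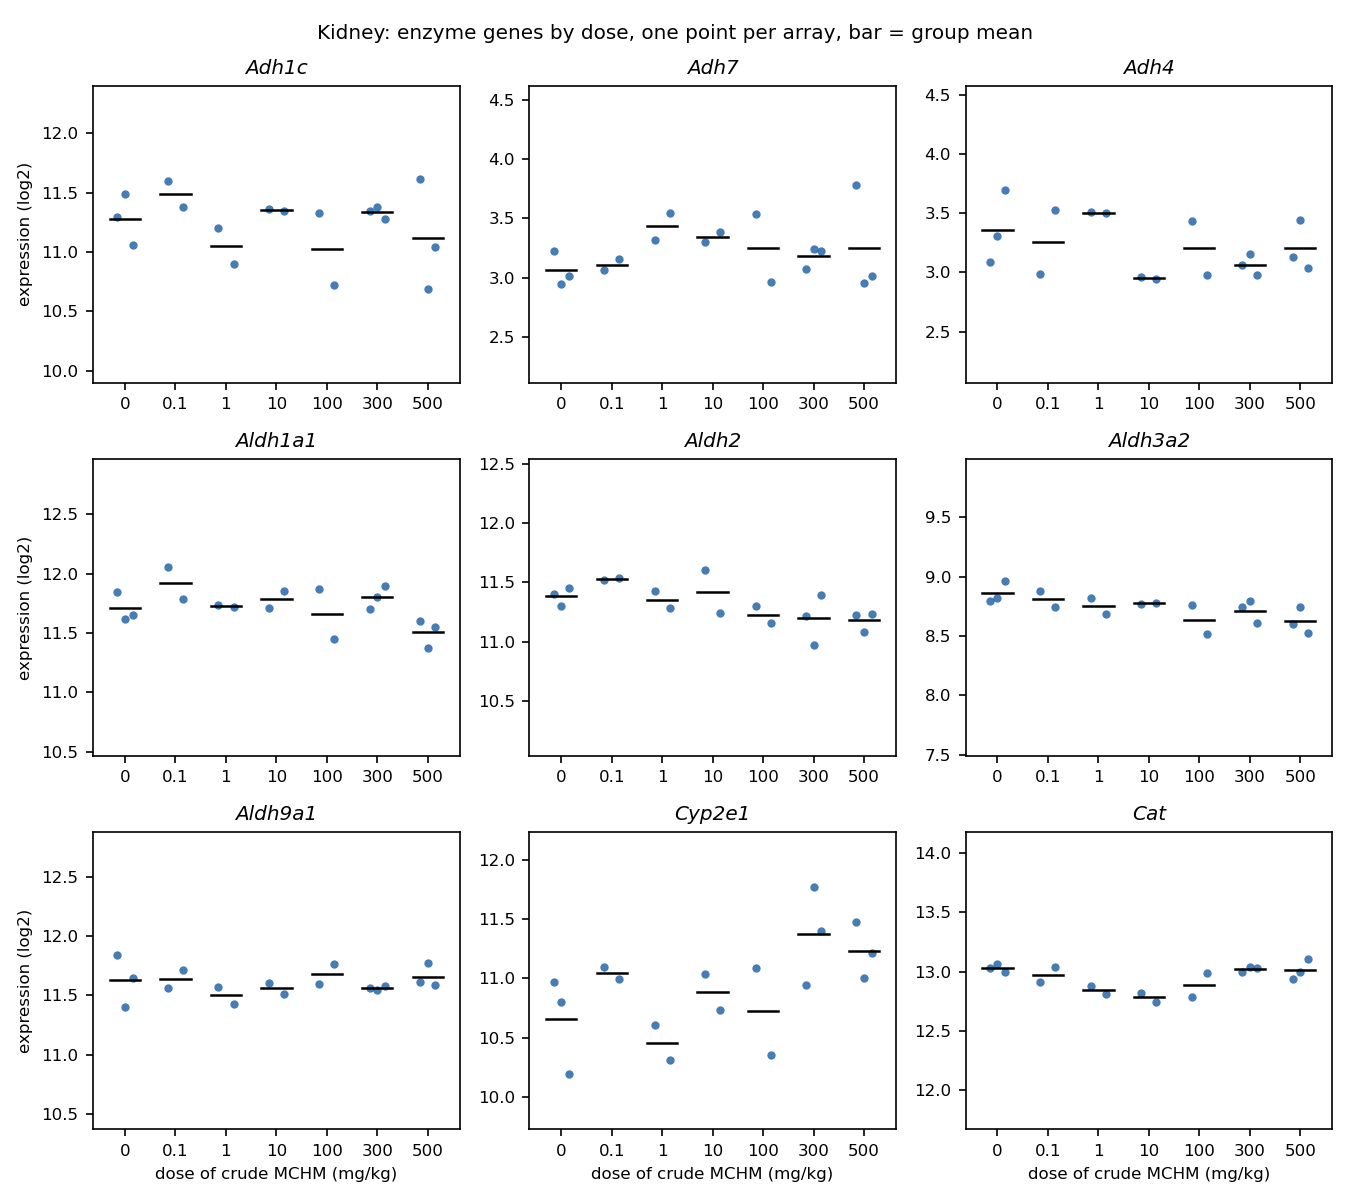
Log2 expression of the 9 genes in kidney (vertical axes, each spanning 2.5 log2 units) by dose of crude MCHM in mg/kg (horizontal axes), with 1 point per array and a bar at each group mean. *Cyp2e1* has its highest means at 300 and 500 mg/kg, and *Aldh1a1*, *Aldh2* and *Aldh3a2* have their lowest mean at 500 mg/kg.

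At 500 mg/kg in kidney 3 of the 9 genes lay above vehicle and 6 below, with a median change of -0.16 against -0.013 over all probe sets. The test of whether the organs changed differently at 500 mg/kg (liver minus kidney) passed for 0 of the 9 genes and for 0.029% of all probe sets. *Aldh3a2* differed by 0.38 (SE 0.117, 95% interval 0.14 to 0.62; adjusted p = 0.186), and with array quality weights it passed (adjusted p = 0.0189). *Adh1c* differed by 0.60 (SE 0.235, 95% interval 0.12 to 1.07; adjusted p = 0.335), its second probe set by 1.24 (adjusted p = 0.169) and *Aldh2* by 0.26 (adjusted p = 0.505). At 300 mg/kg 0 of 9 genes and 0% of all probe sets passed, and *Cyp2e1* differed by -0.65 (SE 0.22; adjusted p = 0.607).

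**Figure D4:**
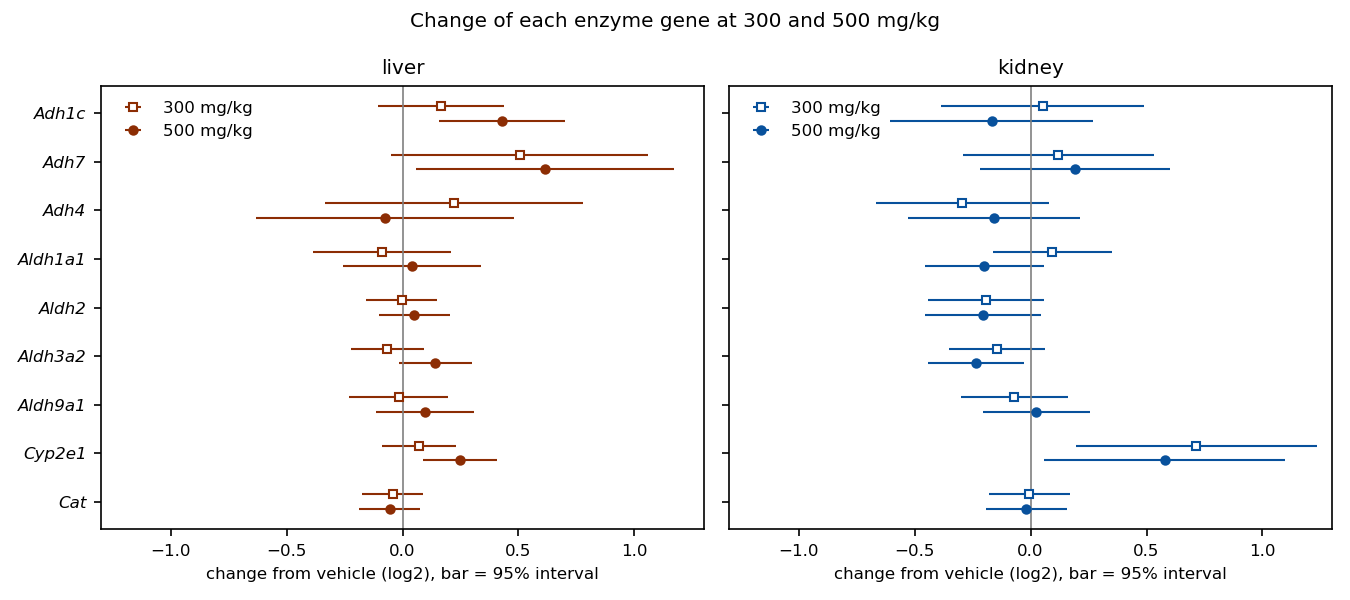
Change from vehicle in log2 units (horizontal axes) of the 9 genes in liver (left) and kidney (right) at 300 mg/kg (open squares) and 500 mg/kg (filled circles), with bars for the 95% interval from limma. In liver the intervals of *Adh1c*, *Adh7* and *Cyp2e1* at 500 mg/kg lie above 0, and in kidney those of *Cyp2e1* at both doses, that of *Aldh3a2* at 500 mg/kg in kidney lies below 0, and none of these changes passed after adjustment.

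Without treatment, 8 of the 9 transcripts were higher in liver than in kidney and 0 were lower past the threshold. Of all 31042 probe sets 61.4% passed in either direction, 10198 of them higher in liver and 8849 lower. The difference was 2.91 for *Aldh3a2* (SE 0.0827, 7.50-fold; adjusted p = 5.18e-27) and 2.76 for *Cyp2e1* (SE 0.156, 6.79-fold). It was 3.25 for *Adh7* (SE 0.268; adjusted p = 4.14e-13) and 2.79 for *Adh4* (SE 0.264; adjusted p = 1.68e-11). These 2 probe sets read low in kidney, where 14.4% and 14.3% of all probe sets had a lower mean, and no call of background was possible, so no fold is given for them. The difference was 1.76 for *Adh1c* (SE 0.166, 3.39-fold) and 2.10 by its second probe set. Smaller differences were found for *Aldh2* at 0.78 (SE 0.0894, 1.72-fold), *Cat* at 0.35 (SE 0.0668, 1.27-fold) and *Aldh9a1* at 0.33 (SE 0.107, 1.25-fold; adjusted p = 0.00897). The *Aldh9a1* call was lost without kidney vehicle replicate 2, the array with high *Xist* (0.21, adjusted p = 0.120), and without liver vehicle replicate 1 (adjusted p = 0.0609).

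*Aldh1a1* was the exception. Its vehicle means were 11.56 ± 0.16 in liver (SD, n = 4) and 11.71 ± 0.12 in kidney (SD, n = 3), a difference of -0.15 (95% interval -0.44 to 0.14; adjusted p = 0.368). Whether the organs were normalised together is not given in the sources used here. The median difference over the 9 genes was 1.76, and over all probe sets it was 0.11.

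**Figure D5:**
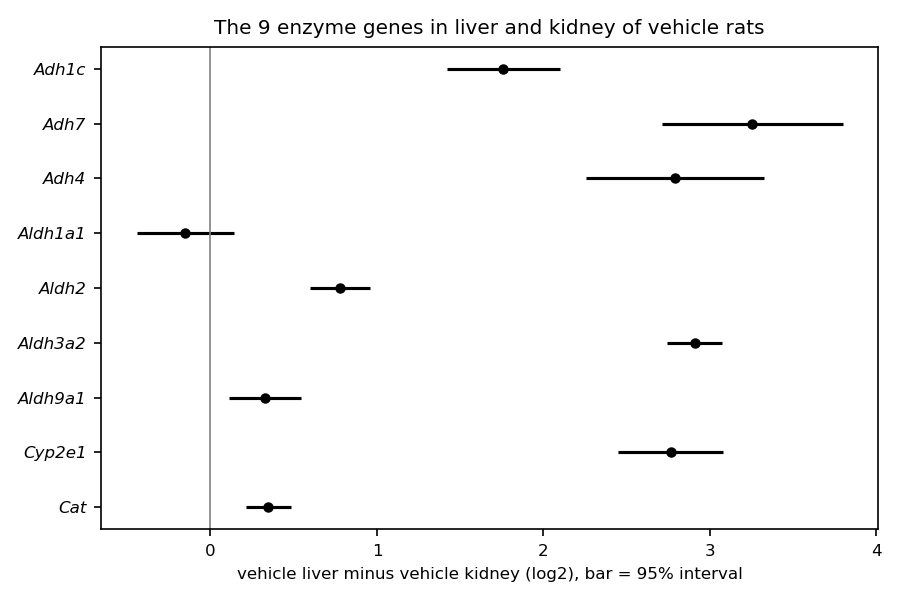
Vehicle liver minus vehicle kidney in log2 units (horizontal axis) for the 9 genes, as points with 95% intervals from 1 limma fit of all arrays. The intervals of 8 genes lie above 0, and that of *Aldh1a1*, -0.44 to 0.14, spans it.

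Around these 9 genes, 40 of 43 other listed genes of alcohol and aldehyde metabolism were measured, among them further aldehyde dehydrogenases, aldo-keto reductases, retinol dehydrogenases and 2-hydroxyacid oxidases. None of the 40 passed at any dose, in the trend or in the test of any dose in either organ, by limma. At an unadjusted limma p under 0.05 there were 6 of 40 at 500 mg/kg in liver, where 8.99% of all probe sets were, and 5 of 40 in kidney, where 10.1% were. In liver at 500 mg/kg 29 lay above vehicle and 11 below, with a median change of 0.08. The highest was *Akr7a3*, an aflatoxin aldehyde reductase, at 0.66 (SE 0.232; adjusted p = 0.362), and the lowest *Aldh1l2*, the mitochondrial formyltetrahydrofolate dehydrogenase, at -0.30 (SE 0.0956; adjusted p = 0.274).

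In kidney at 500 mg/kg 15 of the 40 lay above vehicle and 25 below, with a median of -0.04. The highest was the mitochondrial *Aldh1b1* at 0.71 (SE 0.579; adjusted p = 0.718) and the lowest *Hao1*, which encodes glycolate oxidase, at -1.15 (SE 0.362; adjusted p = 0.364). Of the 40, 16 were called higher and 16 lower in vehicle liver than in vehicle kidney, with a median difference of 0.13. Among all 31042 probe sets 10198 were called higher and 8849 lower. The count was thus even there, whereas among the 9 enzymes 8 were higher and 0 lower.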

How the data were processed

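Total RNA of rat liver and kidney was hybridised to an Affymetrix rat expression array. The deposited values are log2 expression summarised by RMA, per the submitters' processing notes. Per the series' design text in the labels, arrays with batch effects were left out before deposit. The software and the chip definition behind them are not given in the sources used. Each array was grouped by its title. Of 31099 probe sets, 57 controls were left out, leaving 31042. Symbols were updated by gene ID through RefSeq genes of GRCr8.

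The 7 dose groups of an organ were fitted together in limma 3.58.1 (R 4.3.3) with lmFit and eBayes, giving contrasts with vehicle, a slope over dose levels 0 to 6 and an F-test of any dose. A fit of all 44 arrays, treated as independent, gave organ differences. Tests are two-sided and Benjamini-Hochberg adjusted over all probe sets. The *Adh1c* probe set with the higher mean stands for the gene. Pairs were tested with 100000 two-sided permutations. Scanner files were not used here, so no probe set was called above or below background. The number of arrays limits precision: single groups hold 2 to 4.

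Named are the 9 genes, the listed pathway genes highest and lowest at 500 mg/kg in each organ, and for each of the 9 the 2 genes most like it. The members, the pathway list and the marker lists were chosen with earlier results of these data known. Alternatives tried were leaving out each array, array weights, a replicate block, 2-group fits, a filter on dim probe sets, renormalisation, another eBayes prior, untransformed dose and the other probe set. A kidney array of the 10 mg/kg group, whose title lacks a number, was left out of the blocked fits.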

Additional observations from a re-analysis of the deposited data

Results flagged for a closer look

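Each probe set of these genes was checked at each dose with 4 livers, which gave 60 checks on the same livers. In 4 of the 60 checks 1 liver lay far from the other 3, by a gap above Dixon's 95% critical value. Chance gives about 1 in 20 for independent checks. These checks share livers, and the 2 *Adh1c* probe sets report the same gene, so the count cannot be set against that rate. *Adh1c* was low, at 13.15, in replicate 2 at 500 mg/kg. Its second probe set was high, at 9.41, in replicate 1 at 1 mg/kg. *Adh4* read 7.15 and *Cyp2e1* 13.63 in replicate 2 at 300 mg/kg, both above the other 3 livers of that dose.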

How the results depend on the processing

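The count of the 9 genes past the threshold stayed 0 for every dose, trend and any-dose test in both organs under all the alternatives run, and stayed between 7 and 8 for the organ difference when 1 array was left out. With array quality weights 1 gene (*Aldh3a2*) passed in the test between organs of the change at 500 mg/kg. A filter on dim probe sets leaves *Adh4* and *Adh7* out, so the organ difference was called for 6 genes. In kidney 1 pair of probe sets passed against 7 in liver, an alternative chosen after seeing the data. Within an organ, same-numbered arrays of different doses showed no clear pairing. Their deviations from group means correlated with a median of 0.019 (-0.14 to 0.23) in liver and 0.055 (-0.35 to 0.36) in kidney. For arrays with different numbers the medians were -0.0069 and -0.055. Whether a number ties a liver to a kidney of the same rat was not tested. High *Xist* was on vehicle replicate 2 in both organs, and the organ comparisons treated all arrays as independent. With the replicate block, 8 genes passed in the organ difference, and the count of all probe sets in the liver trend was 50 against 76.

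Counts over all probe sets moved far more. At 500 mg/kg they were 1 (2 groups in the fit) to 136 (eBayes with trend and robust) against 55 in liver and 424 with array quality weights against 0 in kidney, and in the test between organs 3 (replicate block) to 951 (array quality weights) against 9. At 300 mg/kg in liver they were 2 (2 groups in the fit) to 139 (filter on dim probe sets) against 38, the liver trend reached 361 with untransformed dose, and the liver any-dose test gave 51 to 165 against 46. Leaving out 1 array gave 9 to 84 in liver and 0 to 616 in kidney at 500 mg/kg.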
